A study of Mus musculus with 6 samples.

Results

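E proteins are transcription factors of the basic helix-loop-helix class that bind the E box, the DNA word CANNTG, as dimers. The ID proteins share the helix-loop-helix but lack the basic DNA-binding region, so a dimer of an ID protein and an E protein does not bind DNA. In developing T cells E proteins drive the rearrangement and assembly of the T-cell receptor, and ID proteins, induced by receptor signals, hold them back as cells mature. TAL1 and LYL1 are tissue-restricted partners of E proteins, LMO2 is the LIM-only bridge protein of the same complexes, and all 3 are oncogenes of T-cell leukemia when expressed in thymocytes. The 10 genes described here are the ID inhibitors Id1, Id2, Id3 and Id4, the E proteins Tcf3, Tcf4 and Tcf12, and the partners Tal1, Lyl1 and Lmo2. They were chosen by name, each was read from the brightest probe set that the array annotation pairs with that symbol alone, and they are 10 of 19938 genes with such a probe set. Each had 1 such probe set.

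RNA came from the whole thymus of mice aged 10 days and was hybridised to 6 MoGene-1 arrays. The RUNX2/MYC group (3 arrays) carried both the CD2-Myc and the CD2-Runx2 transgene on a C57BL6/CBA background, with CD2 control elements driving each transgene in T cells, and was sampled before lymphoma. The WT group (3 arrays) was labelled C57/CBA, carried neither transgene and, per the methods, came from littermate-matched controls. The labels call the arrays of a group biological replicates 1 to 3. Because the single transgenics are not among these arrays, the effect of RUNX2 and that of MYC cannot be told apart.

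The arrays followed their labels: log2 signals of Runx2 lay between 11.73 and 11.96 in RUNX2/MYC and between 7.93 and 7.94 in WT. The mouse Myc probe set, which need not read the transgene, lay between 10.51 and 10.88 in RUNX2/MYC and between 11.0 and 11.26 in WT. Of 8 measured thymocyte markers 0 were called (median log2 fold change -0.02), but Cd4 and Rag1 lay lower on every RUNX2/MYC array than on any WT array. Differences were tested by limma on 35556 probe sets. "Called" means past an adjusted p of 0.05 (Benjamini-Hochberg, across the whole table). Of all probe sets 1.8% were called, 1.68% higher and 0.127% lower, and the arrays of the groups did not overlap for 24.4%. The median log2 fold change over all genes was -0.07. The number of arrays limits the precision, and in whole thymus fewer cells of a type and less RNA per cell cannot be told apart. Signal of adipocyte markers was uneven: their summed linear signal ran from 1482 to 4640 in RUNX2/MYC, highest in replicate 2, and from 1250 to 1548 in WT.

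The regulatory sequences of Id3 and Id2 are shown because these ID genes stood at opposite ends of the family. Each run below is the 250 bases before the RefSeq transcript start on build GRCm38.p6, written 5′ to 3′ on the gene's strand, with E boxes in capitals. The Id3 run is chr4:136143572-136143821 on the plus strand and the Id2 run is chr12:25096093-25096342 on the minus strand.
Id3: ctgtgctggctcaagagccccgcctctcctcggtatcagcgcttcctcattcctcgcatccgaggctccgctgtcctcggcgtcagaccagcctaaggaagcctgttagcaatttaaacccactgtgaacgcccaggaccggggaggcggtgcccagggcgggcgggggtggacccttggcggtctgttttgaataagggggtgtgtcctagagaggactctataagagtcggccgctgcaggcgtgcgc
Id2: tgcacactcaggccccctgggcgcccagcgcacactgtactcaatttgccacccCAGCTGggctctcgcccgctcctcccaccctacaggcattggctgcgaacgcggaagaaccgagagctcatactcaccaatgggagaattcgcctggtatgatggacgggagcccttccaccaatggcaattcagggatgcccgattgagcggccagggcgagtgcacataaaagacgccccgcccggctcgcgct
The Id3 window held no CANNTG, and neither window held the RUNX core words TGTGGT or TGCGGT or the EGR word GCGNGGGCG. The Id2 window held 1 E box, CAGCTG, starting at position -196 from the transcript start. All words were searched on both strands. Of 32536 RefSeq promoter windows of the same length 66.2% held an E box of any form, 13.1% held the form CAGCTG and 17.3% held the form CAGGTG, both of which count among the first share. A RUNX core word was held by 18.5% and the EGR word by 4.74%.

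The study's list of neighbouring MYC-type and RUNX-type motif sites holds a pair for Id3 on chromosome 4, with no build named there, and their letters are shown because Id3 is the gene that rose.
MYC-type site of Id3: cCACCTGttc
RUNX-type site of Id3: tgctgaggctt
The capitals mark the only E box of the first site, CACCTG, which reads CAGGTG on the opposite strand. The second site matched at most 4 of the 6 letters of either RUNX core word. Promoter windows were used for 7 of the 10 genes, and none for Id1, Tcf4 and Lmo2. The search for windows of the 10 genes left out 1 chromosome, so a missing window does not show that RefSeq holds none for that gene. The windows behind the shares given above were not limited in this way. The window of Lyl1 held 1 E box, CACCTG, that of Tcf3 held CACTTG, and of the 3 windows of Tcf12 1 held CAGCTG, 1 held CAAGTG and 1 held none. Neither Tal1 window and not the Id4 window held an E box, and that of Id4 held 2 EGR words.

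Id3, the inhibitor that restrains E proteins once the pre-T-cell receptor or T-cell receptor has signalled, was the only one of the 10 genes to pass the test. Its log2 signals were 9.35, 9.57 and 9.35 in RUNX2/MYC replicates 1 to 3 and 8.31, 8.43 and 8.6 in WT replicates 1 to 3. Every RUNX2/MYC array lay above every WT array, with 0.75 between the lowest of the first and the highest of the second. The means were 9.42 ± 0.125 (SD, n = 3) and 8.45 ± 0.148 (SD, n = 3). Id3 thus rose by 0.97 on the log2 scale (standard error 0.11, 95% interval 0.70 to 1.24), a fold change of 1.96 (1.63 to 2.37, adjusted p = 0.0168 from limma). Ranked by log2 fold change it stood at 88 from the top of the 19938 genes. The call rested on all but 2 of the arrays: the adjusted p was 0.0936 with RUNX2/MYC replicate 2 left out, 0.0875 for replicate 3 of that group, 0.0773 for WT replicate 1 and 0.119 for WT replicate 2, while the log2 fold change stayed between 0.9 and 1.05 whichever array was left out.

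Id2, the inhibitor used by innate lymphoid cells, by dendritic cells and, with Id3, by maturing T cells, ran the other way without passing the test. Its log2 signals were 10.3, 10.77 and 10.5 in RUNX2/MYC and 11.01, 10.79 and 10.92 in WT. The groups did not overlap, but only 0.02 separated RUNX2/MYC replicate 2 from WT replicate 2. The log2 fold change was -0.38 (standard error 0.14, 95% interval -0.71 to -0.06), with an unadjusted p of 0.0258 and an adjusted p of 0.189 from limma. Beside it, the summed linear signal of 9 measured markers of dendritic cells and macrophages ran from 6453 to 7291 in RUNX2/MYC and from 7195 to 8341 in WT, with 0 of 9 called and a median log2 fold change of -0.21. That of 8 markers of NK and innate lymphoid cells ran from 1963 to 1974 and from 1709 to 1852, with a median of 0.01. Their part in the Id2 values was not tested.

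Id4, which in textbook accounts acts mainly in the nervous system and mammary gland, had log2 signals of 7.36, 7.31 and 7.27 in RUNX2/MYC and 7.52, 7.44 and 7.48 in WT. All RUNX2/MYC arrays lay below all WT arrays, by at least 0.08, and the log2 fold change of -0.17 (standard error 0.08) had an adjusted p of 0.272 from limma. Id1, a target of BMP signals in endothelium and stroma, had log2 signals of 7.69, 7.92 and 7.85 in RUNX2/MYC and 7.93, 7.82 and 7.89 in WT. The groups overlapped, and the log2 fold change was -0.06 (95% interval -0.29 to 0.16, standard error 0.094), which turned to 0.02 under median centring. Of the 4 ID genes 1 was called, and their median log2 fold change was -0.116.

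**Figure D1:**
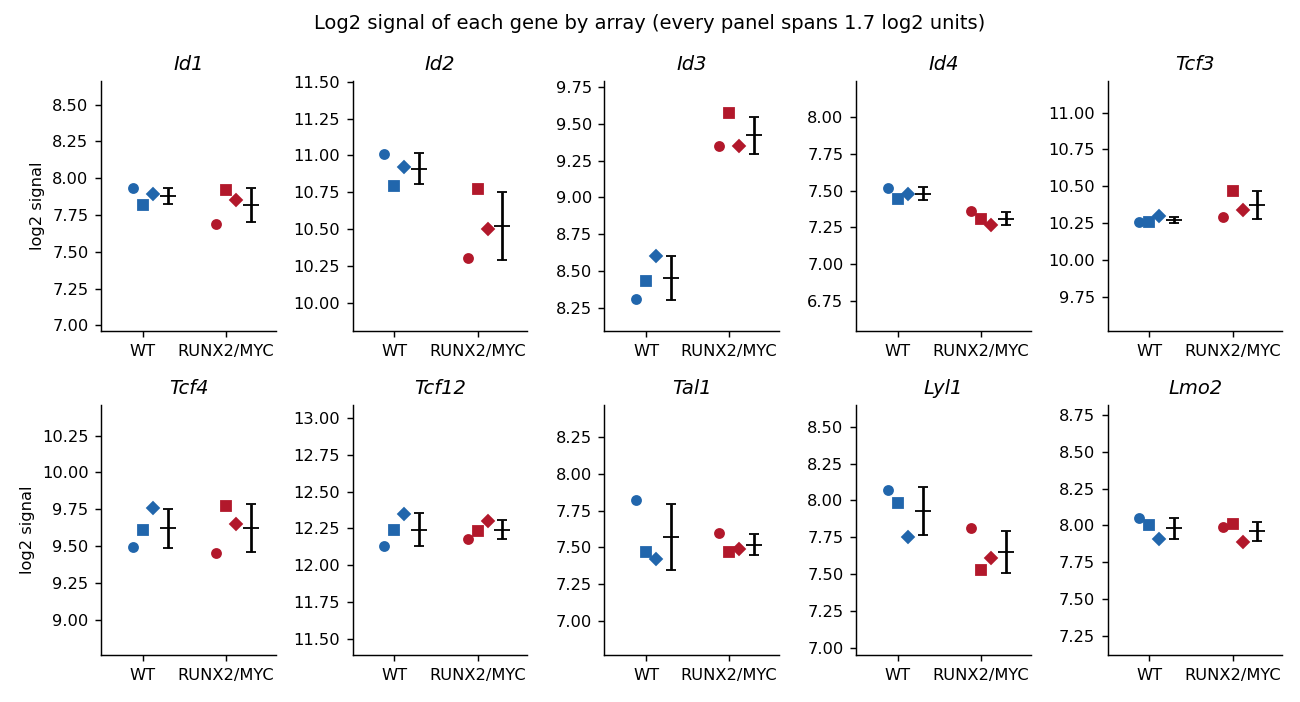
Log2 signal of each of the 10 genes on each array, with WT (blue) and RUNX2/MYC (red) side by side; circles, squares and diamonds are replicates 1, 2 and 3, and the bars show the group mean and SD. The 3 RUNX2/MYC points of Id3, from 9.35 to 9.57, all lie above the WT points, from 8.31 to 8.6, while the Id2 and Id4 points of RUNX2/MYC lie below those of WT and the other 7 genes overlap.

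Whether Id3 differed from its paralogues was tested on the difference of log2 signals within each array. Set against Id2, Id3 changed by 1.36 more on the log2 scale (standard error 0.143, 95% interval 0.96 to 1.75), against Id4 by 1.14 more (0.128, 0.79 to 1.5) and against Id1 by 1.04 more (0.112, 0.73 to 1.35). In each of the 3 pairs every RUNX2/MYC array lay above every WT array. The exact permutation test (two-sided) gave p = 0.1 for each pair, also after Benjamini-Hochberg adjustment over the 3 pairs, and 0.1 is the smallest p that 10 ways to split 3 arrays against 3 allow.

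**Figure D2:**
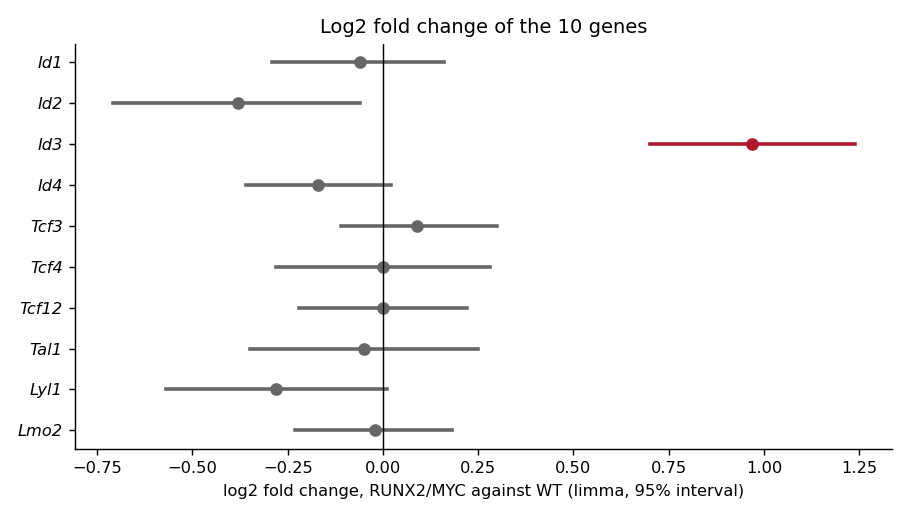
Log2 fold change, RUNX2/MYC minus WT, of the 10 genes by role, with 95% intervals from limma. The interval of Id3 runs from 0.70 to 1.24 and that of Id2 from -0.71 to -0.06, and the intervals of the other 8 genes hold 0.

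The E proteins themselves did not pass the test. Tcf12, which encodes HEB, the most used E protein partner in thymocytes, had log2 signals of 12.18, 12.23 and 12.3 in RUNX2/MYC and 12.13, 12.24 and 12.35 in WT. The groups overlapped throughout, and the 95% interval of the log2 fold change ran from -0.22 to 0.22, so that a change beyond 1.17-fold upward lies outside it. Tcf3, whose products start the T- and B-lymphoid programs, had log2 signals of 10.29, 10.47 and 10.34 in RUNX2/MYC and 10.26, 10.26 and 10.3 in WT. Its groups overlapped by 0.01, and limma gave a log2 fold change of 0.09 (standard error 0.087) at an adjusted p of 0.508.

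Tcf4, the E protein that plasmacytoid dendritic cells depend on, had log2 signals of 9.45, 9.77 and 9.65 in RUNX2/MYC and 9.49, 9.61 and 9.76 in WT, with overlap and a 95% interval of -0.28 to 0.28. The summed linear signal of 6 measured markers of plasmacytoid dendritic cells ran from 4004 to 4631 in RUNX2/MYC and from 3930 to 4521 in WT, and 0 of 6 were called. Its members went both ways: Siglech (log2 fold change -0.50, adjusted p = 0.0623 from limma) and Irf7 (-0.43, 0.132) lay lower on every RUNX2/MYC array, and Spib (0.34, 0.176) lay higher. Their part in the Tcf4 values was not tested. The signs of the E proteins depended on scaling: after quantile normalization the log2 fold changes were -0.01 for Tcf3, -0.11 for Tcf4 and -0.08 for Tcf12. No direction is therefore given for them.

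Tal1, Lyl1 and Lmo2, which lie in the group of T-cell leukemia oncogenes that thymocytes silence as they commit, did not pass either. Lyl1 had log2 signals of 7.81, 7.53 and 7.61 in RUNX2/MYC and 8.07, 7.98 and 7.75 in WT. Only RUNX2/MYC replicate 1 and WT replicate 3 overlapped, by 0.06, and the log2 fold change was -0.28 (standard error 0.12, 95% interval -0.57 to 0.01, adjusted p = 0.244 from limma). Tal1 had log2 signals of 7.6, 7.47 and 7.49 in RUNX2/MYC and 7.82, 7.47 and 7.42 in WT, where replicate 1 alone stood above the other 5 arrays. Its log2 fold change was -0.05 (standard error 0.13, 95% interval -0.35 to 0.25).

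Lmo2 had log2 signals of 7.99, 8.01 and 7.89 in RUNX2/MYC and 8.05, 8.0 and 7.91 in WT, an overlap with a 95% interval of -0.23 to 0.18. The signs of Tal1 and Lmo2 turned under median centring, to 0.04 and 0.06. Other cells of the organ also use these genes. The summed linear signal of 11 endothelial markers ran from 2777 to 3378 in RUNX2/MYC and from 3157 to 3276 in WT, with 0 of 11 called, and that of 6 measured erythroid markers ran from 2610 to 4078 and from 1821 to 1925, without overlap. The erythroid markers went both ways, 3 with a positive and 3 with a negative log2 fold change. Besides Tfrc, Alas2 (1.17) and Slc4a1 (0.64) were positive, and Gata1 (-0.25), Klf1 (-0.09) and Epb42 (-0.05) were negative. Of the erythroid markers 1 was called, Tfrc, the transferrin receptor that dividing cells also use (log2 fold change 0.73, adjusted p = 0.0318 from limma). Its call was lost without RUNX2/MYC replicate 2 (0.152) or 3 (0.146) and without WT replicate 1 (0.0936) or 2 (0.15), as were nearly all calls of the table. It was also lost under 75th percentile centring (0.0538). The part of these cells in the values of Tal1, Lyl1 and Lmo2 was not tested.

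Over all 10 genes 1 was called higher and 0 lower, against 2.27% and 0.0953% of all genes. A positive log2 fold change was held by 4 and a negative one by 6, and 59.8% of all genes had a negative one. The arrays of the groups did not overlap for 3 of the 10, against 26.8% of all genes. Those with an unadjusted p under 0.05 from limma were 2, Id3 and Id2, against 21.2% of all genes.

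**Figure D3:**
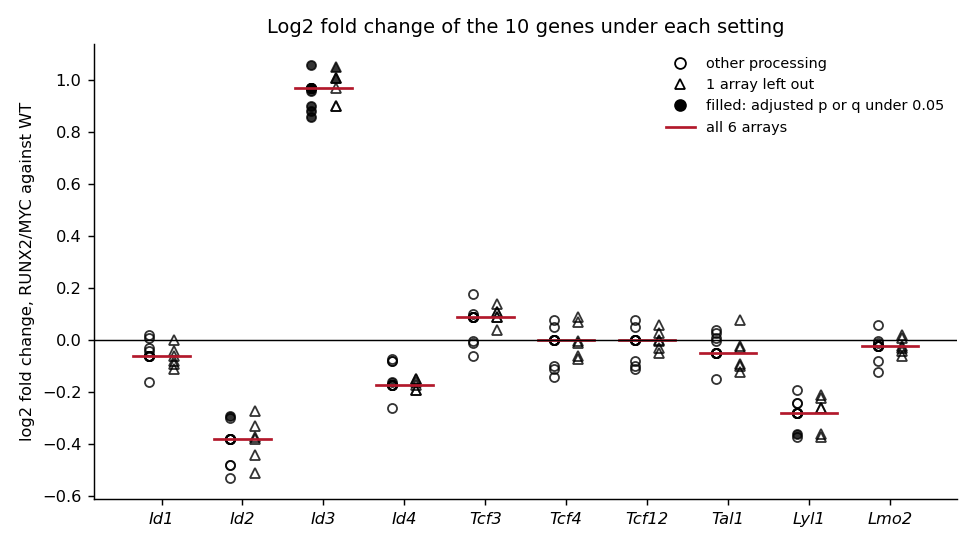
Log2 fold change of each of the 10 genes on all 6 arrays as deposited (red line), under other processing (circles) and with 1 array left out (triangles), filled where the adjusted p or q was under 0.05. Where an alternative can move the log2 fold change, Id3 runs from 0.86 to 1.06, while Tcf3, Tcf4, Tcf12, Tal1, Lmo2 and Id1 take both signs. Several of the 18 alternatives change only the test or the probe sets tested and leave the log2 fold change as it is. The mean of all probe sets of a gene repeats the main value, because each gene had 1.

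The genes known to be activated by E proteins in thymocytes were read next. Of 10 listed, 8 were measured, 0 were called, and all 8 had a negative log2 fold change, from -0.74 to -0.19 with a median of -0.45, against -0.07 over all genes. For 6 of the 8 every RUNX2/MYC array lay below every WT array, which held for 11.2% of all genes. Cd4, the co-receptor gene, had log2 signals of 10.8, 11.47 and 11.25 in RUNX2/MYC and 11.82, 11.87 and 12.07 in WT, without overlap (limma log2 fold change -0.74, standard error 0.18, adjusted p = 0.091). Rag1, a subunit of the recombinase of receptor genes, had 11.69, 12.17 and 11.99 in RUNX2/MYC and 12.38, 12.59 and 12.72 in WT, also without overlap (-0.62, 0.15, adjusted p = 0.0963). Both, and Ptcra of the same list, are also thymocyte markers. The summed linear signal of the 8 measured thymocyte markers ran from 33879 to 38331 in RUNX2/MYC and from 37916 to 41037 in WT. The paper describes a large premalignant population in this thymus, and the part of cell composition in these values was not tested. The median of the genes activated by E proteins stayed between -0.58 and -0.31 under the alternatives that could move it, arrays left out included.

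Of 5 genes that E proteins hold back until maturation 4 were measured and 0 were called. Klf2, the factor that licenses exit from the thymus, had log2 signals of 9.06, 9.25 and 9.18 in RUNX2/MYC and 8.73, 8.54 and 8.62 in WT, without overlap (log2 fold change 0.53, standard error 0.096, adjusted p = 0.0502 from limma). S1pr1, the receptor that guides that exit, had 9.16, 9.18 and 9.23 in RUNX2/MYC and 8.64, 8.79 and 8.92 in WT (0.41, 0.099, adjusted p = 0.0957). For both the RUNX2/MYC arrays lay above the WT arrays, which held for 3100 of all 19938 genes. The other 2 measured members, Il7r (-0.28) and Ccr7 (-0.01), had negative log2 fold changes with overlap, and the median of the 4 was 0.2.

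The known routes of Id gene induction examined were the ERK-EGR route downstream of the T-cell receptor and the BMP-SMAD route. Of 8 genes of the ERK-EGR route 0 were called and 0 had an unadjusted p under 0.05 (21.2% of all genes did), with log2 fold changes between -0.12 and 0.15. Egr1, the immediate-early factor, had log2 signals of 9.74, 9.88 and 9.87 in RUNX2/MYC and 9.88, 9.77 and 9.67 in WT, which overlapped (log2 fold change 0.05, 95% interval -0.17 to 0.28). Nab1, a corepressor of EGR factors, had the highest value of the list (0.15, adjusted p = 0.57 from limma) and Cd69, an activation marker, the lowest (-0.12, adjusted p = 0.704), the latter reaching 0.07 without RUNX2/MYC replicate 1.

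Of 19 genes of the BMP-SMAD route 0 were called, with a median of -0.09. The receptor gene Bmpr1a had log2 signals of 7.96, 8.17 and 8.46 in RUNX2/MYC and 7.46, 7.83 and 7.8 in WT, without overlap (log2 fold change 0.50, adjusted p = 0.166 from limma). The ligand gene Bmp2 had 5.65, 5.69 and 5.53 in RUNX2/MYC and 5.85, 6.06 and 5.94 in WT (-0.33, adjusted p = 0.14). Its mean signal lay below 6.15, the level under which probe sets were removed as dim in one alternative, so no direction is read from it.

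**Figure D4:**
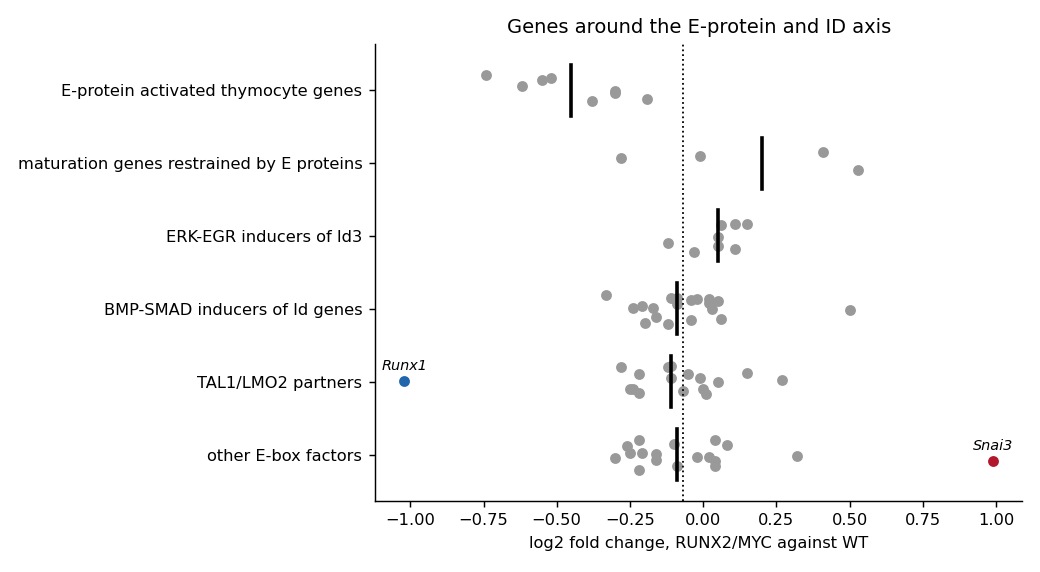
Log2 fold change, RUNX2/MYC minus WT, of each measured gene of the 6 pathway lists, 1 point a gene, with the median of each list as a bar and that of all genes (-0.07) as a dotted line. All 8 points of the genes activated by E proteins lie below 0 (median -0.45), and Runx1 and Snai3 are the called genes.

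Among 17 further partners of TAL1 and LMO2, which include GATA, ETS and LDB1 factors, 0 were higher and 1 was lower. That gene was Runx1, a core T-cell factor that sits in TAL1 complexes, with log2 signals of 10.01, 10.43 and 10.2 in RUNX2/MYC and 11.08, 11.38 and 11.24 in WT. The groups were 0.65 apart, and Runx1 fell by 1.02 on the log2 scale (standard error 0.14, adjusted p = 0.0234 from limma). The median of the 17 was -0.11. Among 18 other E-box factors 1 was higher and 0 lower: Snai3, a zinc-finger repressor that binds E boxes, had log2 signals of 8.66, 9.05 and 8.91 in RUNX2/MYC and 7.9, 7.78 and 7.96 in WT. It rose by 0.99 on the log2 scale (standard error 0.12, adjusted p = 0.0192 from limma), with all RUNX2/MYC arrays above all WT arrays. Both calls were lost on leaving out any 1 of the arrays without which the Id3 call was lost, as were nearly all calls of the table. The adjusted p from limma was then up to 0.133 for Runx1 and 0.124 for Snai3 (both without WT replicate 2).

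For a comparison of profiles each array was centred on its median over genes, and each gene then on its own mean over the 6 arrays. The genes whose log2 profile, so centred, lay nearest that of Id3 were Timm8a1 (mean absolute difference 0.05 on the log2 scale), Rcl1 (0.053) and Dhx33 (0.056). Timm8a1 encodes a chaperone of mitochondrial protein import, Rcl1 a factor of ribosomal RNA processing and Dhx33 an RNA helicase. Their log2 fold changes were 1.05, 1.0 and 0.9.

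Markers of the other cell types that the organ holds are given for the whole set, as summed linear signals. Thymic epithelial markers were the list furthest to the lower side: 8 of 10 did not overlap and lay lower in RUNX2/MYC, against 11.2% of all genes. The sums ran from 12693 to 14374 in RUNX2/MYC and from 17444 to 18705 in WT, and 0 were called (median log2 fold change -0.28). B-cell markers, 6 measured, ran from 1287 to 1542 and from 1550 to 1633 in WT, fibroblast markers, 7 measured, from 1917 to 2463 and from 2201 to 2530, and mast cell markers, 6 measured, from 567 to 590 and from 598 to 653. Markers of megakaryocytes and platelets, 4 measured, ran from 503 to 811 and from 572 to 653 in WT. None of these genes was called, and their part in the values of the 10 genes was not tested.

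**Figure D5:**
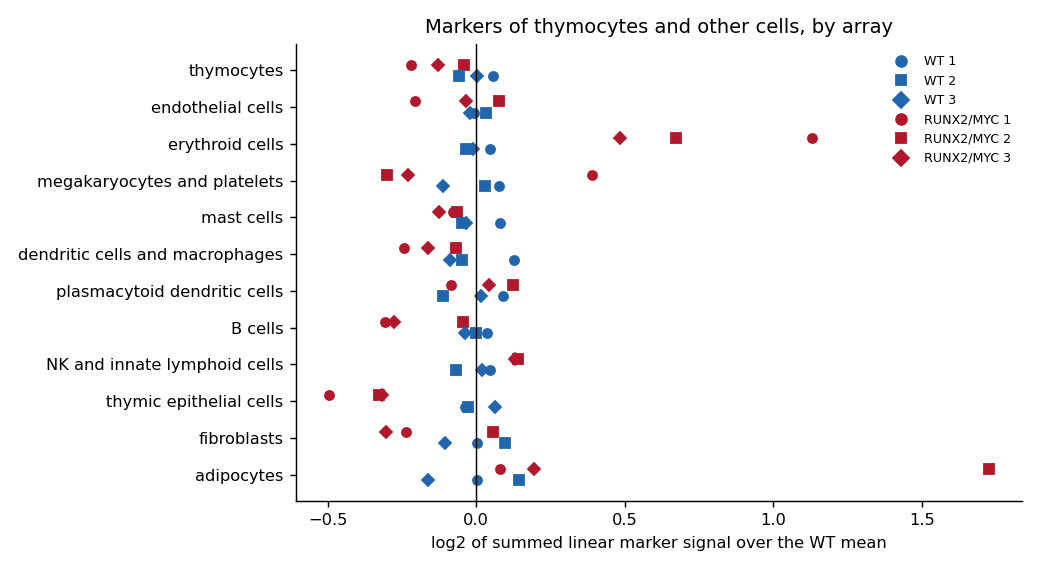
Log2 of the summed linear signal of each marker list on each array (WT blue, RUNX2/MYC red, a shape for each replicate), relative to its mean over the WT arrays. The sum of thymic epithelial markers lies lower and that of erythroid markers higher on all RUNX2/MYC arrays. Of the 6 erythroid markers 3 had a negative log2 fold change. The adipocyte sum stands out on RUNX2/MYC replicate 2.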

How the data were processed

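The authors deposited log2 signals of 6 MoGene-1 arrays; per the labels' processing notes the software was Affymetrix Expression Console 1.4 with RMA. The methods add an adjustment for GC content. RMA normally gives arrays a common distribution, which can hide a shift of all genes, but the array medians here ran from 7.31 to 7.49. Values were used as deposited. Of 35556 probe sets the platform annotation pairs 21789 with 1 symbol, 1621 with several and 12146 with none; Runx2 was named by its probe set number in the study's list. RUNX2/MYC was compared with WT in limma 3.58.1 (R 4.3.3; lmFit, eBayes, no covariate), p-values being adjusted over the whole table by Benjamini-Hochberg, after the code was tested on simulated data. The 10 genes and all lists were chosen with earlier results of these data known. Named besides them were called genes of a pathway list (if none, the largest 2 by absolute log2 fold change), the 3 nearest profiles to Id3 and marker lists; Egr1 and the plasmacytoid dendritic cell markers given singly were added after their values were seen. Lists are described by counts and medians, over the genes measured. Promoter sequences are RefSeq's (GRCm38.p6). The labels do not say whether replicates came from separate animals, so p-values measure the spread between these arrays. Alternatives covered scaling, filters, the methods' ANOVA, variance priors, array weights, a replicate block and leaving out each array.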

Additional observations from a re-analysis of the deposited data

How the results depend on the processing

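The higher call of Id3 was lost without RUNX2/MYC replicate 2 or 3 or WT replicate 1 or 2 (log2 fold change 0.90 to 1.05 over all left-out arrays). Leaving out any 1 of those arrays left 3 or 4 probe sets called higher and 0 lower in the whole table. Where a setting could move the log2 fold change of Id3, it ran from 0.86 to 1.06. Of the other alternatives only the methods' ANOVA with Benjamini-Hochberg adjustment lost the call (0.97, adjusted p = 0.0704). The same ANOVA gave 0.0953 for Runx1, 0.079 for Snai3 and 0.0953 for Tfrc. With array weights, whose estimation stopped before its tolerance (weights 0.3 to 6.21), Id2 (-0.29), Id4 (-0.16) and Lyl1 (-0.36) passed the threshold, as did 9165 probe sets higher and 12137 lower. With arrays left out, Id2 lay between -0.51 and -0.27. Signs turned for Id1 under median centring (0.02), array weights (0.01) and with 1 array left out (-0.11 to 0.00069), for Tcf3 under quantile normalization (-0.01), 75th percentile centring (-0.00201) and cyclic loess (-0.06), for Tcf4 (-0.11, -0.10 and -0.14) and Tcf12 (-0.08, -0.10 and -0.11) under the same, for Tal1 under quantile normalization (0.01), median centring (0.04) and cyclic loess (0.03), for Lmo2 under median centring (0.06) and for Cd69 with array weights (0.22) and with 1 array left out (-0.25 to 0.07). Egr1 also turned under quantile normalization (-0.05), 75th percentile centring (-0.05) and cyclic loess (-0.10). With 1 array left out Tcf4 ran from -0.07 to 0.09, Tcf12 from -0.05 to 0.06, Tal1 from -0.12 to 0.08 and Lmo2 from -0.06 to 0.02. Of genes that did not pass, Klf2 passed under 8 of 17 alternatives, Cd4 and Rag1 under 3 each (probe sets of 1 symbol, adjusted p = 0.0266 and 0.0325, array weights and the replicate block), S1pr1 and Bmpr1a under 2 each, Siglech under 4, and Spib and Bmp2 under 1 each. The cause was not tested.

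The 596 probe sets called higher became 915 under median centring, 209 under 75th percentile centring, 1236 over probe sets of 1 symbol, 162 with the methods' ANOVA and 1213 with its q values, 1042 with a trended, robust prior and 3 to 872 with 1 array left out. The 45 lower became 98 under quantile normalization, 124 under cyclic loess, 85 with dim probe sets removed, 149 over probe sets of 1 symbol, 247 with q values, 104 with the trended prior and 0 to 718 with 1 array left out. The higher share of calls was 93.0%, against 95% under median centring and 84.7% under quantile normalization. It was 82.3% under 75th percentile centring, 78.7% under cyclic loess and 68.4% with the replicate block. It was 54.8% without RUNX2/MYC replicate 1 and 43.0% with array weights. Leaving out any 1 of the arrays without which the Id3 call was lost gave 100%, but of only 3 or 4 calls. The remaining settings lay between 83.1% and 90.9%. Higher calls outnumbered lower ones in every setting but array weights, whose estimation stopped before its tolerance. The size of the excess was not stable.

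Whether replicate numbers pair the arrays cannot be decided here, because the deviations of a group's 3 arrays cancel each other. Deviations of same-numbered arrays correlated at 0.501, -0.148 and 0.606, the first and last being the highest values for their arrays. RUNX2/MYC replicate 2 correlated best with WT replicate 3 (0.209), and unlike numbers ran from -0.626 to 0.372. With the replicate block 1654 probe sets were higher and 763 lower, and no call of the 10 genes changed (Id3 0.97, adjusted p = 0.0121). Of the other genes named, the block brought Cd4 (adjusted p = 0.034), Rag1 (0.0269), Klf2 (0.0412), Bmpr1a (0.041) and Siglech (0.0354) past the threshold, and 3 of the 8 genes activated by E proteins were then lower.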
